A study of Mus musculus with 4 samples.

Results

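Acta1 encodes the alpha actin of skeletal muscle, and it is described here in sorted epithelial cells of the mouse small intestine. It is 1 gene of the 32285 features counted. It was chosen from results of these same libraries because its level was higher in mutants in enterocytes and in Paneth cells, so its difference between genotypes is given as a description, with no test. What was asked is which cells hold its unique molecular identifiers (UMIs, 1 per captured RNA molecule), how often a cell of each kind has one, and whether few cells hold most of them.

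Actin is the filament protein of the cell skeleton and of the contractile fibre. Mammals have a small family of near-identical actins: Actb and Actg1 are made in almost every cell, Acta1 mainly in skeletal muscle, Actc1 mainly in heart, and Acta2 and Actg2 mainly in smooth muscle. In enterocytes, the absorptive cells of the villus, bundles of actin filaments fill the microvilli of the brush border and anchor in the terminal web. Paneth cells sit at the base of the crypt and secrete lysozyme and defensins. Serum response factor (SRF), with its cofactors of the MRTF family, drives many actin and muscle genes through the CArG box, a motif in their promoters.

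The study sequenced 4 droplet libraries (3' RNA ends) of cells sorted with antibodies to CD45, CD31, TER-119 and CD326 from mice aged 25 weeks. Mutant 1 and mutant 2 carry the G5081A point mutation of TrnA, the mitochondrial gene for the alanine transfer RNA, at loads of 77% and 81%. Wild type 1 and wild type 2 carry no mutation in the labels. Mutant 1 and wild type 1 form set A, with no sex in the titles, and mutant 2 and wild type 2 form set B, titled male, with a different Cell Ranger version in the file headers. No label gives a further allele or a treatment of these mice, and the labels do not say whether each library is 1 animal, so a p-value below reads only how much these libraries vary, which may be technical.

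The deposited libraries held 99772712 to 127796409 UMIs in 5974 to 13805 barcodes. After filters on genes, UMIs, mitochondrial UMIs and doublets, 10242 epithelial cells remained in mutant 1, 4291 in wild type 1, 7736 in mutant 2 and 7376 in wild type 2. Pairs of libraries shared 26 to 60 barcodes. Clusters were built without Acta1 and the other actins and named from marker genes, so that enterocyte, Paneth and the other class names below stand for cells that resemble those types. The enterocyte class had 40263 to 70793 CPM (UMIs of a gene or list scaled to 1e6 UMIs of the same cells) of 29 enterocyte markers, and the Paneth class had 440 to 2539 CPM of them. The Paneth class in turn had 573939 to 676672 CPM of 14 Paneth markers.

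Acta1 (ENSMUSG00000031972) lies on the minus strand of chromosome 8, from 123891769 to 123894751 in mm10, with 7 exons in the annotated transcript ENSMUST00000034453.5. Its promoter is shown because it holds a match to the CArG box of SRF. RefSeq (GRCm38.p6) gives the 250 bases before its start at chr8:123894776-123895025, minus strand. Capitals mark the CArG box, which starts 73 bases before that start, and a TATAAA, which starts 7 bases before it.
Acta1 promoter: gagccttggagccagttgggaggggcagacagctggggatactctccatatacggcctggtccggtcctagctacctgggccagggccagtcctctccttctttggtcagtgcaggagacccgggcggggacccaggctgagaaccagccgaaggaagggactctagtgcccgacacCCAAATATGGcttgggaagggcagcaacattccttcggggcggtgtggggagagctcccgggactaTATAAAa
The match read CCAAATATGG, and the search covered both strands. For the CArG box it took only exact matches to CCWWWWWWGG, where W is A or T, so a box with any other base was not counted. In RefSeq windows from 250 bases before to 50 bases after a start, 535 of 32851 promoters held a CArG box (1.63%) and 4473 held TATAAA (13.6%). The annotated GENCODE start lies 24 bases further into the gene. Among the other actins with a window, those of Actc1 and Actg1 held an exact match too and that of Acta2 did not. Actb and Actg2 had no window and were not searched. These matches are a description of letters and not of a bound site.

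Counts at this gene can in principle take up reads of near-identical actins. Of the 451 stretches of 50 bases in the last 500 bases of the Acta1 transcript, where 3' libraries read, 0 were shared with any other annotated gene. Over the whole transcript 31 of 1397 stretches were shared, 28 of them with Actb and 10 with Actg1, and a stretch can be shared with several genes. Over all epithelial cells Actc1 had 0 UMIs in every library, Acta2 had 0 to 6 UMIs in a library and Actg2 had 0 to 6, against 340 to 2932 UMIs of Acta1.

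Over all epithelial cells, Acta1 was low, and it was higher in the mutant than in the wild type of the same set. Mutant 1 had 624 UMIs, or 6.04 CPM (exact Poisson 95% interval 5.57 to 6.53), and wild type 1 had 340 UMIs, or 3.85 CPM (3.45 to 4.28). Mutant 2 had 2932 UMIs, or 31.0 CPM (29.9 to 32.1), and wild type 2 had 843 UMIs, or 9.42 CPM (8.79 to 10.1). These intervals, and all others below, cover counting error only. Mutant over wild type was 1.57-fold in set A and 3.29-fold in set B. The genotypes overlapped, since mutant 1 lay below wild type 2. The means were 18.5 ± 17.6 CPM in mutants and 6.63 ± 3.94 CPM in wild types (SD, n = 2 each). The libraries of set B were higher within each genotype too: mutant 2 stood 5.13-fold above mutant 1, and wild type 2 stood 2.45-fold above wild type 1. The difference of mean log2 CPM was 1.18, and without mutant 2 it was 0.0039. It was 2.36 without mutant 1, 0.54 without wild type 1 and 1.83 without wild type 2.

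Enterocytes, the largest source of these UMIs in every library, showed the difference between genotypes within each set. They had 27.6 CPM in mutant 1 (246 UMIs in 1491 cells), against 12.4 CPM in wild type 1 (108 UMIs in 1025 cells). In set B they had 169 CPM in mutant 2 (2189 UMIs in 2465 cells), against 43.1 CPM in wild type 2 (532 UMIs in 2478 cells). Mutant over wild type was 2.23-fold in set A (counting interval 1.77 to 2.82) and 3.93-fold in set B (3.58 to 4.33). The genotypes overlapped here as well, with mutant 1 below wild type 2, and the difference of mean log2 CPM was 1.57, or 0.26 without mutant 2. Without mutant 1 it was 2.87, without wild type 1 it was 0.67, and without wild type 2 it was 2.46. Enterocytes held 39.4% of the Acta1 UMIs and 8.61% of all UMIs in mutant 1, and 31.8% and 9.84% in wild type 1. They held 74.7% and 13.6% in mutant 2, and 63.1% and 13.8% in wild type 2.

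Paneth cells had the largest ratio between genotypes among the named classes, at a low CPM. They had 4.32 CPM in mutant 1 (35 UMIs, interval 3.01 to 6.002), against 0.541 CPM in wild type 1 (2 UMIs, interval 0.065 to 1.95). In set B they had 8.81 CPM in mutant 2 (126 UMIs, interval 7.34 to 10.5), against 1.39 CPM in wild type 2 (16 UMIs, interval 0.794 to 2.26). Both mutants lay above both wild types, by 7.98-fold in set A (counting interval 2.05 to 68.5) and by 6.34-fold in set B (3.75 to 11.4). The same order held in cycling-like cells and in cells of unnamed clusters, both given below. In those, however, the counting intervals of mutant 1 and wild type 2 overlapped. The difference of mean log2 CPM was 2.83, and it was 3.34 without mutant 1, 2.15 without wild type 1, 2.32 without mutant 2 and 3.51 without wild type 2. Wild type 1 had 45 Paneth cells, 38 of them in cluster 19, whereas the other Paneth cells of all libraries were in cluster 20, with 326 cells in mutant 1, 281 in mutant 2 and 306 in wild type 2.

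Cells of clusters that no marker list named, 1943 in mutant 1, 993 in wild type 1, 1396 in mutant 2 and 975 in wild type 2, also differed within each set. They had 2.32 CPM in mutant 1 and 0.498 in wild type 1, and 7.98 in mutant 2 and 2.26 in wild type 2. Mutant over wild type was 4.65-fold in set A (counting interval 2.53 to 9.12) and 3.52-fold in set B (2.44 to 5.23). The difference of mean log2 CPM was 2.02, above that of enterocytes. In set A, however, the 2 libraries lay mostly in different clusters. Cluster 13 held 1344 cells of mutant 1 and 45 of wild type 1. Clusters 2 and 9 held 334 and 315 cells of wild type 1, and 19 and 5 of mutant 1. In cluster 10, with many cells of both, the set A ratio was 2.90-fold, from 17 and 8 UMIs. The part of this mix in the ratio was not tested.

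The other named classes had a smaller difference of mean log2 CPM than enterocytes, at 0.029 to 0.84. Enteroendocrine cells, the hormone-secreting cells, had no common direction between the sets, with 25.3 CPM in mutant 1, 33.8 in wild type 1, 35.3 in mutant 2 and 25.4 in wild type 2. Goblet cells, which secrete mucus, had 5.58 CPM in mutant 1, 3.52 in wild type 1, 17.9 in mutant 2 and 8.81 in wild type 2. Tuft cells, chemosensory cells, had 10.2, 4.51, 10.9 and 10.9 CPM in mutant 1, wild type 1, mutant 2 and wild type 2, from 3 to 13 UMIs each. Mutant over wild type was 2.26-fold in set A, from 6 and 3 UMIs, and their counting intervals overlapped within both sets. Crypt cells were low: stem-like cells had 4.09, 2.81, 7.66 and 4.83 CPM in the same order, and cycling-like cells 2.67, 2.12, 6.18 and 2.56 CPM. Of the 2484 stem-like cells of mutant 1, 2331 were in cluster 7, and 1468 of its 1821 cycling-like cells were in cluster 21, while cells of these classes in the other libraries lay mostly in other clusters.

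**Figure D1:**
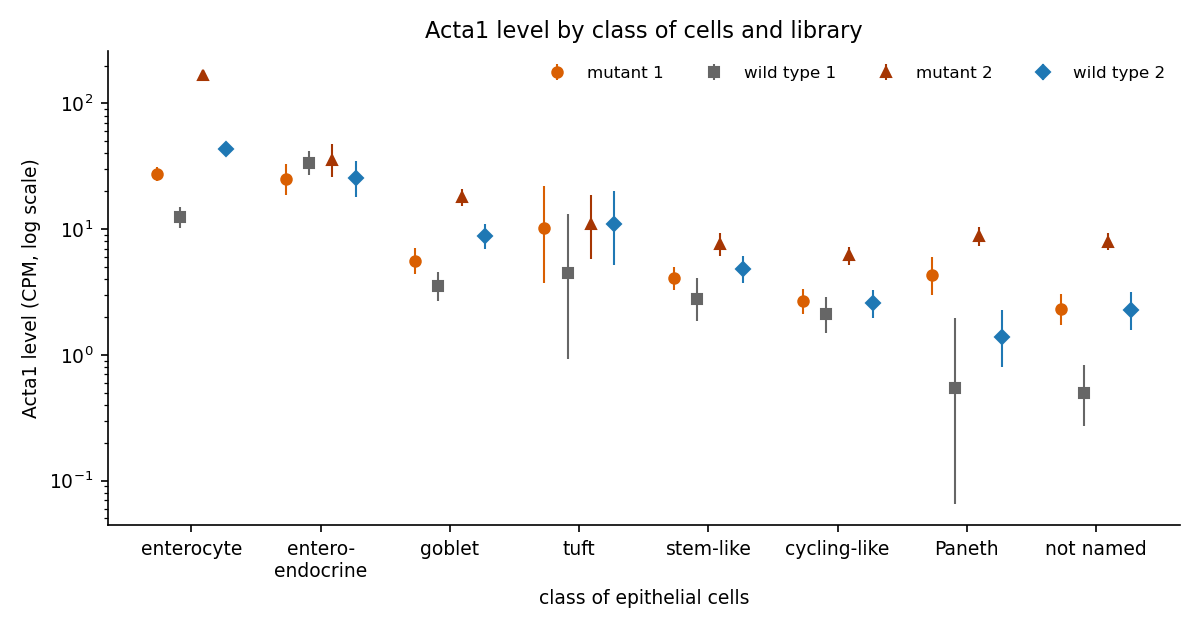
Acta1 level (CPM, log axis) in each class of cells, 1 point per library, with exact Poisson 95% intervals, mutants left of wild types. Enterocytes ran from 12.4 to 169 CPM and Paneth cells from 0.541 to 8.81 CPM. Both mutants lay above both wild types in Paneth cells, and also in cycling-like cells and in cells not named.

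The order of the classes was not the same in each library. Enterocytes led in mutant 1, mutant 2 and wild type 2, and enteroendocrine cells led in wild type 1. In mutant 1 the enterocyte interval, 24.3 to 31.3 CPM, and the enteroendocrine interval, 18.9 to 33.1 CPM, overlapped, so their order there cannot be read. By CPM, Paneth cells were the lowest of the named classes in wild type 1 and wild type 2. The 62, 39, 36 and 14 T cells of mutant 1, wild type 1, mutant 2 and wild type 2, a cell type not known to express the gene and removed from the epithelium here, held 3 UMIs in 1 cell of mutant 2. In the other libraries 0 of 62, 0 of 39 and 0 of 14 T cells had a UMI, which allows shares of up to 4.84%, 7.69% and 21.4% when a count of 0 is taken to allow 3.

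Detection followed the level in enterocytes. A UMI was found in 5.63% of enterocytes in mutant 1 (84 cells), against 3.80% in wild type 1 (39 cells). It was found in 15.9% in mutant 2 (391 cells), against 5.17% in wild type 2 (128 cells). Median depths were 2543 and 3713 UMIs per cell in mutant 1 and wild type 1, and 3349 and 2850.5 in mutant 2 and wild type 2. With each cell thinned to 2000 UMIs, the shares were 3.99% in mutant 1 and 2.40% in wild type 1, and 11.9% in mutant 2 and 3.87% in wild type 2. Thinning left out 589, 106, 459 and 622 shallower enterocytes in mutant 1, wild type 1, mutant 2 and wild type 2.

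Paneth cells carried many more UMIs per cell, so their unthinned shares looked high. A UMI was found in 6.13% of Paneth cells in mutant 1, against 4.44% in wild type 1, and in 31.0% in mutant 2, against 4.90% in wild type 2. Their median depths were 24297, 88515, 52851 and 36430 UMIs per cell in mutant 1, wild type 1, mutant 2 and wild type 2. Thinned to 2000 UMIs, the shares were 1.21% in mutant 1 and 0.098% in wild type 1, and 1.68% in mutant 2 and 0.300% in wild type 2. Thinned in the same way, stem-like cells had 0.653% in mutant 1 and 0.346% in wild type 1, and 1.17% in mutant 2 and 0.656% in wild type 2. Paneth markers took most UMIs of Paneth cells, which lowers the CPM and thinned share of other genes there. For each 1000 Actb UMIs, Paneth cells held 3.95 Acta1 UMIs in mutant 1 and 0.968 in wild type 1. In set B they held 11.1 in mutant 2 and 1.39 in wild type 2. Stem-like cells held 2.13, 1.69, 4.52 and 2.85 in mutant 1, wild type 1, mutant 2 and wild type 2. Actb itself ran from 559 to 1093 CPM in Paneth cells. Thinned shares of enteroendocrine cells were 4.06%, 4.60%, 5.32% and 4.27% in mutant 1, wild type 1, mutant 2 and wild type 2, close to one another across genotypes.

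**Figure D2:**
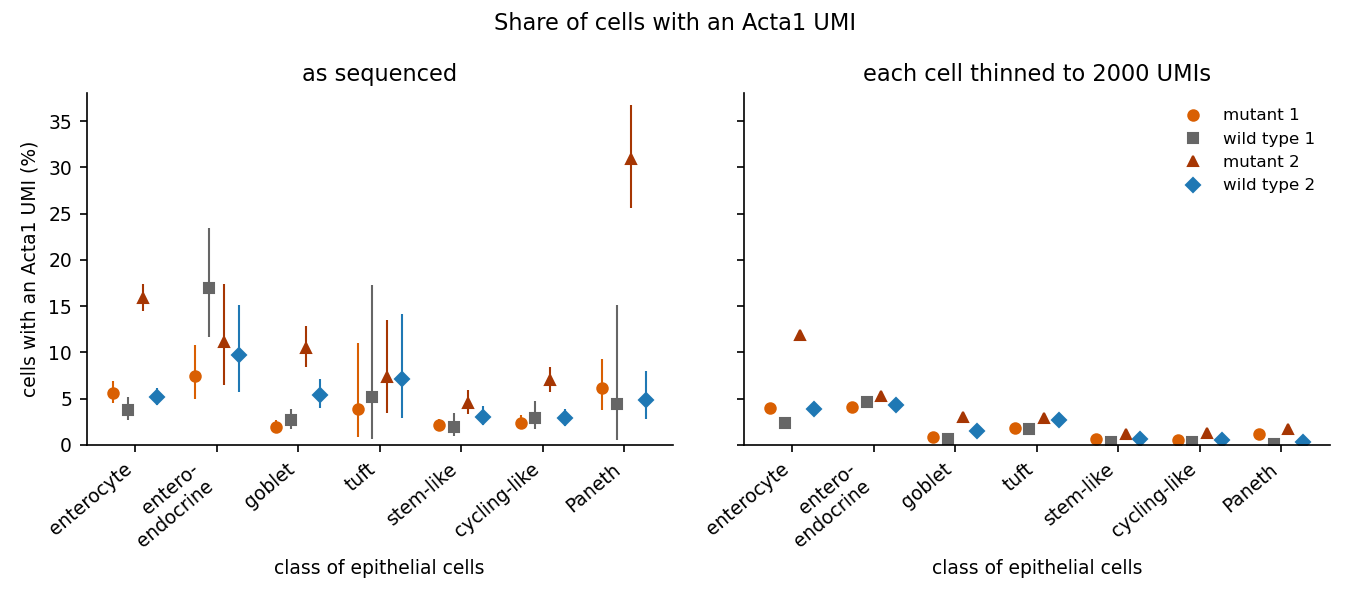
Share of cells with at least 1 Acta1 UMI (percent), as counted and after each cell was thinned to 2000 UMIs, by class and library, mutants left of wild types. Mutant 2 stood highest in enterocytes, at 15.9% as counted and 11.9% thinned, and its Paneth share was 31.0% as counted and 1.68% thinned.

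Few cells held most of the Acta1 UMIs in every library. In enterocytes, 50% of the UMIs lay in 11 cells of mutant 1, 5 cells of wild type 1, 29 cells of mutant 2 and 11 cells of wild type 2. The 1% of enterocytes with most UMIs held 58.1% of them in mutant 1 and 67.6% in wild type 1, and 47.1% in mutant 2 and 68.2% in wild type 2. The numbers of enterocytes with 5 or more UMIs were 13 in mutant 1 and 5 in wild type 1, and 100 in mutant 2 and 25 in wild type 2. The richest enterocyte had 28 UMIs in mutant 1, 17 in wild type 1, 72 in mutant 2 and 76 in wild type 2. In mutant 2 and wild type 2 the richest cell gave 0.887% and 0.873% of its own UMIs to Acta1.

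The difference between genotypes, for which Acta1 was chosen, was described again with less weight on the richest cells. With at most 1 UMI counted per cell, the log2 difference in enterocytes was 1.31, and without the 1% of cells with most Acta1 per UMI it was 1.87. The 1% of enterocytes with most UMIs held a larger share of them in the wild type of each set, which by itself tends to raise the trimmed ratio. In Paneth cells the same changes gave 2.21 and 2.99. There the trim took 1 of the 2 cells of wild type 1 with a UMI, each with 1 UMI, so the 2.99 rests on 1 UMI in that library. In mutant 1, however, 1 Paneth cell held 13 of the 35 UMIs and 3 cells held 50%, whereas in mutant 2 it took 26 cells.

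Acta1 was also spread over fewer cells than its UMI count would give by depth alone. If the UMIs had been spread over enterocytes in proportion to depth, 209 cells would have had one in mutant 1, 94.2 in wild type 1, 1197 in mutant 2 and 431 in wild type 2. The cells observed came to 0.403 of that number in mutant 1 and 0.414 in wild type 1, and to 0.327 in mutant 2 and 0.297 in wild type 2. The medians for genes with a similar number of UMIs in enterocytes were 0.974, 0.935, 0.969 and 0.955 in the same order. Only 4 of 3826 such genes in mutant 1, 5 of 3407 in wild type 1, 4 of 1610 in mutant 2 and 1 of 3306 in wild type 2 were spread over fewer cells for their count. In Paneth cells the UMIs lay closer to a spread by depth, with 20 cells observed and 32.7 by depth in mutant 1, and 2 and 1.95 in wild type 1. In mutant 2 they were 87 and 98.1, and in wild type 2 they were 15 and 15.4.

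**Figure D3:**
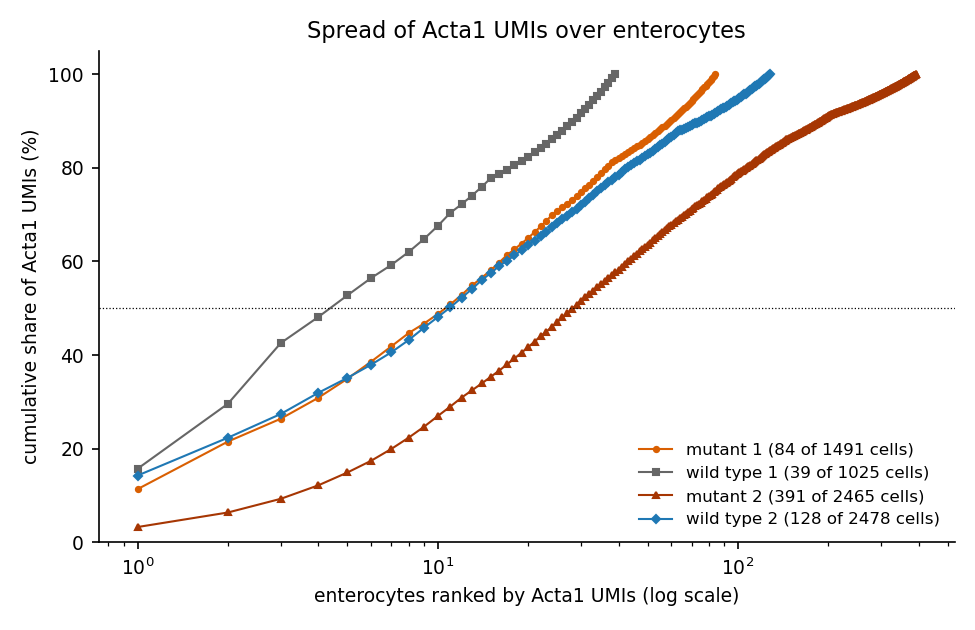
Cumulative share of the enterocyte Acta1 UMIs (percent) against cells ranked by their Acta1 UMIs, 1 line per library. The lines reach 50% at 11 cells in mutant 1, 5 in wild type 1, 29 in mutant 2 and 11 in wild type 2.

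Over all epithelial cells, 25 cells of mutant 1, 21 of wild type 1, 127 of mutant 2 and 37 of wild type 2 had 5 or more Acta1 UMIs. Enterocytes made up 52.0% of these in mutant 1 and 23.8% in wild type 1, and 78.7% in mutant 2 and 67.6% in wild type 2. The richest cell of wild type 1 was an enteroendocrine cell with 26 UMIs, and those of the other libraries were enterocytes.

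Enterocytes fell into 6 clusters, and Acta1 differed widely between them. Cluster 8, led by Abi3bp, Slc10a2 (the ileal bile acid transporter), Slc13a1 and Tmeff2, had 114 CPM in mutant 1 and 54.2 in wild type 1, and 452 in mutant 2 and 391 in wild type 2. A UMI was found in 10.1% of its cells in mutant 1 and 9.12% in wild type 1, and in 35.1% in mutant 2 and 21.7% in wild type 2. Mutant over wild type in this cluster was 2.11-fold in set A and 1.16-fold in set B. The cluster made up 22.7% of enterocytes in mutant 1 and 28.9% in wild type 1, and 14.6% in mutant 2 and 5.21% in wild type 2.

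Cluster 16, led by the lipid carriers Fabp1, Fabp2, Rbp2 and Apoc3, had 49.6 CPM in mutant 1 and 3.10 in wild type 1, and 220 in mutant 2 and 52.9 in wild type 2. Cluster 24, led by Slc28a2, Nt5e and Ada, genes of purine handling, had 23.4 and 12.3 CPM in mutant 1 and wild type 1, and 511 and 42.8 CPM in mutant 2 and wild type 2. Cluster 14, led by Slc5a12 and by the lactase gene Lct, had 30.1 and 2.24 CPM in mutant 1 and wild type 1, and 66.8 and 12.4 CPM in mutant 2 and wild type 2. In clusters 14 and 16 the mutant stood above the wild type beyond counting error within both sets. In cluster 8 this held for set A, whereas for set B the counting interval of the ratio was 0.992 to 1.35, with 76 of the 214 UMIs of wild type 2 in 1 cell. In cluster 24 the ratio in set B was 11.9-fold (8.59 to 17.0), and in set A it was 1.90-fold (0.450 to 9.15) from 6 UMIs in mutant 1 and 4 in wild type 1, which gives no direction. The 3.10 CPM of cluster 16 and the 2.24 CPM of cluster 14 in wild type 1 rest on 4 and 3 UMIs.

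Clusters 11 and 15 had no common direction that could be read. Cluster 11, led by Fabp6, Slc51b and Slc51a, genes of bile acid transport, had 1.75 CPM in mutant 1 and 4.34 in wild type 1, and 6.52 in mutant 2 and 6.11 in wild type 2. The counting intervals of its ratio held 1 in both sets, at 0.143 to 1.02 in set A and 0.461 to 2.40 in set B. Of the 18 UMIs of wild type 1 there, 17 lay in 1 cell. Cluster 15, led by Plb1, Nos2, Fgf15 and Sis, had 7.25 CPM in mutant 1 and 35.5 in wild type 1, and 62.0 in mutant 2 and 32.6 in wild type 2. All 14 UMIs of wild type 1 in that cluster lay in 1 cell, and 63 of the 115 UMIs of mutant 2 lay in 1 cell.

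**Figure D4:**
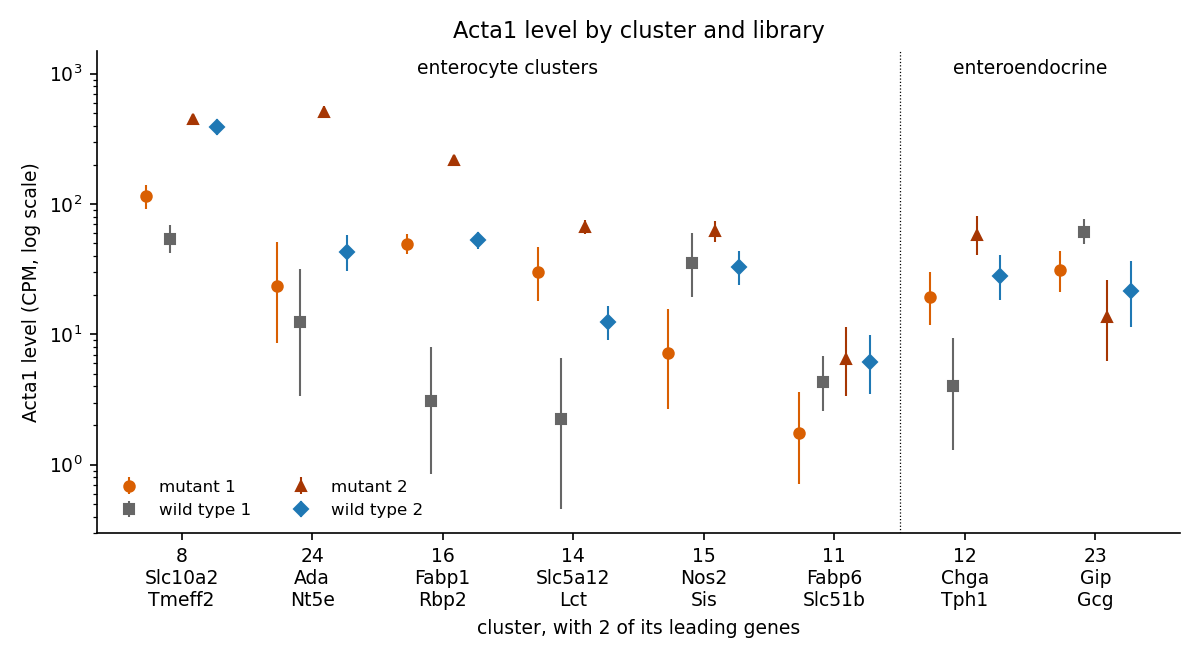
Acta1 level (CPM, log axis) in each enterocyte and enteroendocrine cluster, 1 point per library, with exact Poisson 95% intervals, mutants left of wild types. Cluster 8 ran from 54.2 to 452 CPM and cluster 11 from 1.75 to 6.52 CPM.

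The 2 enteroendocrine clusters ordered the libraries of set A differently. Cluster 12, led by Chga, Chgb, Tac1 and the serotonin enzyme gene Tph1, had 19.4 CPM in mutant 1 and 3.99 in wild type 1, and 58.3 in mutant 2 and 27.9 in wild type 2. Cluster 23, led by the hormone genes Gip, Nts, Gcg and Cck, had 31.1 CPM in mutant 1 and 61.4 in wild type 1, and 13.7 in mutant 2 and 21.5 in wild type 2. In cluster 12 mutant over wild type was 4.86-fold in set A (counting interval 1.77 to 16.6, with 5 UMIs in wild type 1) and 2.09-fold in set B (1.23 to 3.60). In cluster 23 it was 0.507-fold in set A (0.326 to 0.770). In set B it was 0.638-fold (0.241 to 1.61) from 9 UMIs in mutant 2 and 13 in wild type 2, 10 of these 13 in 1 cell, so no direction can be read there.

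Free RNA in the droplets can give UMIs to cells that do not express a gene. Barcodes under the gene or UMI minimum held 13, 4, 63 and 8 Acta1 UMIs in mutant 1, wild type 1, mutant 2 and wild type 2. Per 10000 UMIs of the 29 enterocyte markers, Acta1 had 13.0 and 6.70 UMIs in those barcodes of mutant 1 and wild type 1, and 31.0 and 3.53 in those of mutant 2 and wild type 2. In enterocytes the same ratio was 6.86 in mutant 1 and 2.88 in wild type 1, and 23.9 in mutant 2 and 6.78 in wild type 2. In Paneth cells it was 37.8 in mutant 1 and 12.3 in wild type 1, and 42.9 in mutant 2 and 5.47 in wild type 2. The Paneth ratio was thus 5.51, 4.27, 1.79 and 0.807 times the enterocyte ratio in mutant 1, wild type 1, mutant 2 and wild type 2. In enteroendocrine cells the ratio was 87.5, 108, 85.2 and 66.5 in the same order, above that of enterocytes in every library. How much of the Paneth Acta1 came from free RNA was not tested.

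Markers of muscle were checked as well, since muscle is where Acta1 is abundant. Over all epithelial cells, Myh2 and Pvalb were at 0 UMIs in every library, and Ckm, the muscle creatine kinase, had 2 UMIs in mutant 1 and 2 in wild type 1, and 3 in mutant 2 and 5 in wild type 2. Of the 20 genes of the skeletal muscle list, Mylpf had most UMIs, with 536 and 527 in mutant 1 and wild type 1, and 558 and 503 in mutant 2 and wild type 2. In enterocytes, 7, 5, 6 and 6 of the 20 genes had a UMI in mutant 1, wild type 1, mutant 2 and wild type 2. Their summed level there was 12.2 CPM in both mutant 1 and wild type 1, and 10.2 CPM in mutant 2 and 9.97 CPM in wild type 2. Smooth muscle markers summed to 1.91 CPM in mutant 1 and 3.22 in wild type 1, and to 2.71 in mutant 2 and 3.65 in wild type 2. The part of muscle RNA in the Acta1 level was not tested.

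The marker lists of Paneth, T and cycling cells were higher in the mutant of each set. That of stem cells was higher in the mutant of set A and nearly level in set B. In enterocytes, Paneth markers summed to 4937 CPM in mutant 1 and 2668 in wild type 1, and to 10611 in mutant 2 and 7383 in wild type 2, with all 14 detected in each. Markers of T cells summed to 25.8 and 10.7 CPM in mutant 1 and wild type 1, and to 12 and 2.59 CPM in mutant 2 and wild type 2. Stem cell markers summed to 482 CPM in mutant 1 and 282 in wild type 1, and to 241 in mutant 2 and 237 in wild type 2. Markers of cycling cells summed to 177 CPM in mutant 1 and 104 in wild type 1, and to 83.0 in mutant 2 and 71.9 in wild type 2. Erythroid markers, with no such order, had 114 CPM in mutant 2, against 1.24 to 5.17 CPM in the other libraries. Their part in the Acta1 difference was not tested.

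Actb, the main constitutive actin, was nearly level in enterocytes. It was 7274 CPM in mutant 1 and 7253 in wild type 1, and 7523 in mutant 2 and 7117 in wild type 2. Actg1 was 2538 CPM in mutant 1 and 1890 in wild type 1, and 1122 in mutant 2 and 1047 in wild type 2. For each 1000 Actb UMIs, enterocytes held 3.80 Acta1 UMIs in mutant 1 and 1.71 in wild type 1, and 22.5 in mutant 2 and 6.06 in wild type 2. In edgeR's quasi-likelihood test of all epithelial cells, fitted with a term for the set, the log2 fold change of Actb was 0.11 ± 0.15 (SE, adjusted p = 0.998) and that of Actg1 was 0.37 ± 0.14 (adjusted p = 0.784).

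Other genes were tested between genotypes over the whole table, with Benjamini-Hochberg adjustment and an adjusted p threshold of 0.05. Acta1, chosen for this contrast, is left out of the counts that follow. edgeR with no term for the set called 0 of 16746 genes over the epithelium (0%), 0 of 11998 genes of enterocytes (0%) and 0 of 11006 genes of Paneth cells (0%). At an unadjusted p under 0.05 there were 112, 29 and 101 genes in the same order, and DESeq2 called 7, 0 and 0. Once a term for the set was added, edgeR called 22 genes over the epithelium (0.131%), 11 of them higher (0.0657%). In enterocytes it called 24 (0.2%), 14 of them higher (0.117%), and in Paneth cells 3 (0.0273%), 2 of them higher (0.0182%). Those higher over the epithelium were the Paneth defensin genes Defa5, Defa20, Defa32, Defa34 and Defa35, the haemoglobin genes Hbb-bt, Hbb-bs, Hba-a1 and Hba-a2, and Hsd17b13 and Slc15a2. Those higher in enterocytes included Defa5, Defa20, Defa34, Gm15293, Ang4 and Mptx2 of Paneth cells and Ccl5 and Gzma of T cells. The others there were Usp18, Atf5, Cyp1a1, Slc15a2, H2-M2 and Ifit1. How much of these calls came from RNA of other cells was not tested. The 3 in Paneth cells, named after their values were seen, were the enteroendocrine genes Chgb, with a log2 fold change of 2.11, Tac1, with 2.41, and Cck, with -1.28.

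With 0.2% of all genes called between genotypes in enterocytes, a count of 0 in a short list is near the background and says nothing particular about its members. With the set in the fit, 0 of 22 measured SRF and MRTF regulators and targets, 0 of 31 brush border and terminal web genes and 0 of 15 actin folding genes passed in enterocytes in edgeR, with 1, 0 and 1 at an unadjusted p under 0.05. Their median log2 fold changes were -0.04, -0.07 and 0.10, beside -0.01 over all genes tested. Filip1l, the SRF list member with the smallest p, had -1.07 ± 0.24 (SE), and Srf itself had 0.30 ± 0.25. Of the genes within 100 kb of Acta1, Rab4a, 2810455O05Rik, Ccsap, Nup133, Gm45890 and Abcb10 could be tested in all epithelial cells, and none passed (adjusted p = 0.998 each in edgeR with that term). Nup133, the nearest of them, had a log2 fold change of -0.04, and Abcb10, a mitochondrial transporter, had 0.08.

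To see what goes with Acta1 within a library, each cell with an Acta1 UMI was paired with a cell without one, from the same library and cluster and with nearly the same total UMIs. There were 292 pairs in mutant 1, 130 in wild type 1, 827 in mutant 2 and 304 in wild type 2. Medians were 9757 UMIs in cells with and 9755.5 in cells without in mutant 1, and 20560 and 20396 in wild type 1. They were 10891 and 10789 in mutant 2, and 10770 and 10669 in wild type 2. In edgeR with the library as a block and Acta1 left out, 84 of 11160 genes passed (0.753%), with 80 higher (0.717%) and 4 lower in cells with an Acta1 UMI. Of the 80, 77 were higher in all 4 libraries, and all 4 of the others were lower in all 4. The count was 18 without mutant 1, 135 without wild type 1, 27 without mutant 2 and 22 without wild type 2. With no block for the library edgeR called 0 genes, with 44 at an unadjusted p under 0.05, and DESeq2 with the block called 22. With 3 or more UMIs required of a cell, a choice made after seeing the data, 57 of 7790 genes passed (0.732%), with 52 higher (0.668%).

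Among the called genes with 1 sign in all 4 libraries and a mean of at least 10 CPM, the largest rise was that of March3, a membrane-bound ubiquitin ligase, with a log2 fold change of 1.00 ± 0.15 (SE, edgeR adjusted p = 0.00306). In cells with an Acta1 UMI it had 22.7, 47.5, 41.7 and 42.3 CPM in mutant 1, wild type 1, mutant 2 and wild type 2, against 13.7, 41.7, 15.8 and 17.8 CPM in cells without. The groups differed least in wild type 1. Tph1, the first enzyme of serotonin synthesis in the gut, was 0.95 ± 0.09 higher (edgeR adjusted p = 3.05e-05). It had 39.2, 91.1, 12.02 and 80.3 CPM in cells with an Acta1 UMI, against 23.4, 45.5, 6.70 and 37.1 CPM in cells without, in the same order of libraries. Sct, which encodes the hormone secretin, was 0.74 ± 0.07 higher, and it had 5692 CPM in cells with and 2842 in cells without in wild type 1, where it was most abundant.

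Tmeff2, a leading gene of cluster 8, was higher by 0.86 ± 0.11, Dlg2 by 0.95, Cerkl by 0.90, Stxbp5l and Rasgef1b by 0.77 each, and Utp14b, which overlaps Acsl3 in the mouse genome and may share its reads, by 0.72. The genes lower in cells with an Acta1 UMI included Scin, an actin-severing protein, at -0.42, and Mertk, a receptor tyrosine kinase, at -0.28. Defa30, a Paneth defensin, had -0.21 and did not pass (edgeR adjusted p = 0.0606).

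Within enterocytes alone a larger share of genes passed. In 83, 39, 386 and 126 pairs of mutant 1, wild type 1, mutant 2 and wild type 2, 228 of 6166 genes passed (3.7%), with 170 higher (2.76%) and 58 lower. In these enterocytes, 65 genes were called that were also called over all epithelial cells, or 77.4% of the 84 and 28.5% of the 228. The cells in this comparison are a subset of the cells in the other. Enterocyte markers summed to 62795 CPM in enterocytes with an Acta1 UMI and 52799 CPM in those without in mutant 1, and to 61853 and 53381 in wild type 1. They summed to 85604 and 80533 in mutant 2, and to 90980 and 85944 in wild type 2. The partners without Acta1 in mutant 2 held 619 CPM of erythroid markers, against 0.836 CPM in its enterocytes with a UMI. The median mitochondrial share was 8.43% in enterocytes with and 12.5% in those without in wild type 2. The part of these differences in the calls was not tested.

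Among the genes named by the same rule in enterocytes were March3, with a log2 fold change of 1.29 ± 0.12, and Duox2, the oxidase that makes hydrogen peroxide at the brush border, with 1.07 ± 0.14. Duox2 had 187, 240, 189 and 185 CPM in enterocytes with an Acta1 UMI of mutant 1, wild type 1, mutant 2 and wild type 2, against 79.1, 226, 88.7 and 61.7 CPM in those without. It differed little in wild type 1 and more in the other libraries. Ptger4, a prostaglandin E2 receptor, was higher by 1.06 ± 0.17, Gas2l3, which links actin filaments to microtubules, by 1.04 ± 0.17, and Ly6m by 1.03 ± 0.10. Dusp10, a phosphatase of stress kinases, was higher by 1.26 ± 0.26. The uncharacterised Gm47507 was higher by 1.42 ± 0.24, and Nyap1 and Npl were higher by 1.19 and 1.04.

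Of the 58 genes lower in enterocytes with an Acta1 UMI, Slc28a1, a pyrimidine nucleoside transporter, had the largest decrease among those named by that rule, with -1.28 ± 0.27. It had 16.1, 3.63, 8.78 and 17.4 CPM in enterocytes with an Acta1 UMI, against 23.3, 10.9, 28.7 and 33.8 CPM in those without, in mutant 1, wild type 1, mutant 2 and wild type 2. Rdh16, a retinol dehydrogenase, fell by 1.02 on the log2 scale, Aadac, an esterase, by 0.77, Gstm3, a glutathione transferase, by 0.75, and Car4, a carbonic anhydrase, by 0.72. Ccnd2, a cyclin, fell by 0.78. Prkag2, a subunit of the kinase AMPK, fell by 0.80 and the transcription factor gene Nfib by 0.66.

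**Figure D5:**
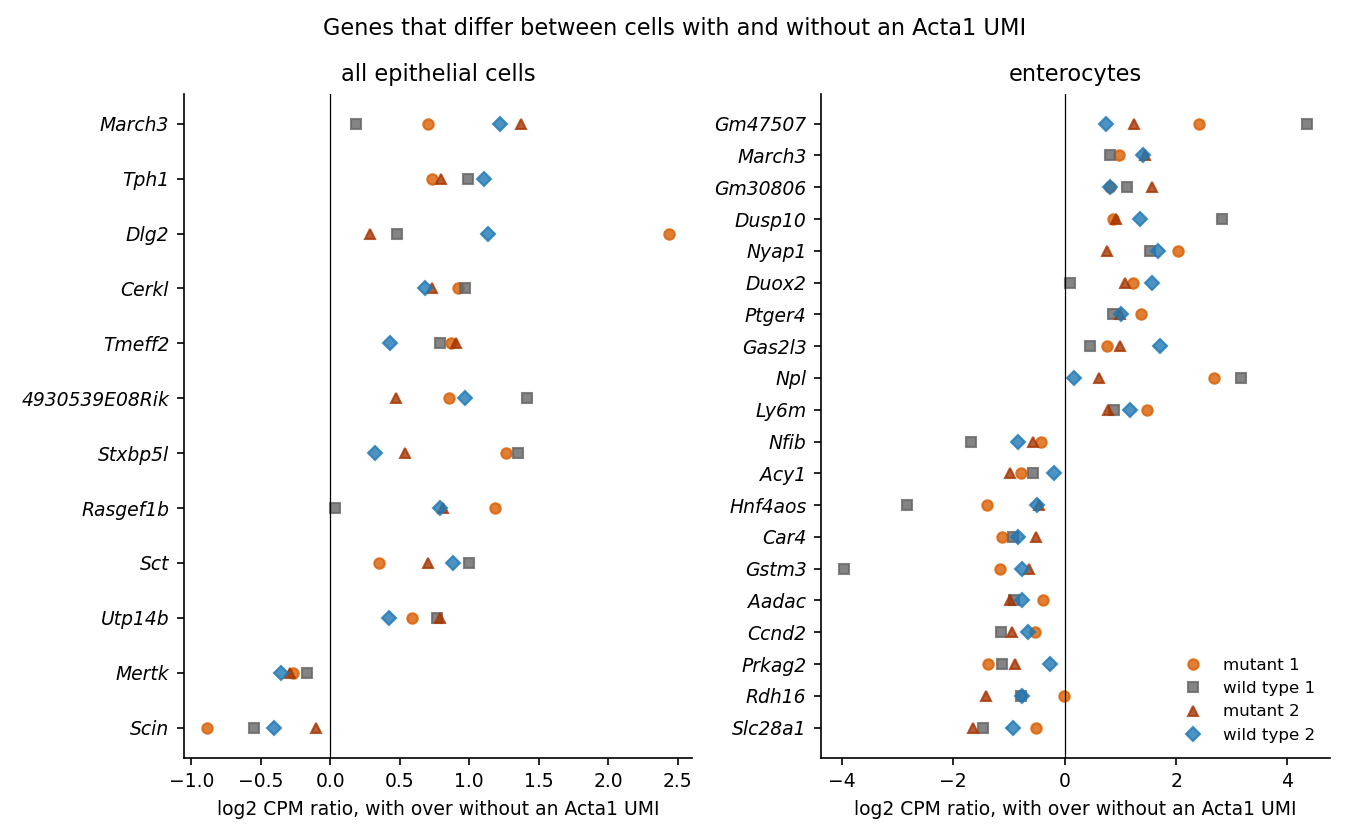
Log2 ratio of CPM (with 0.5 CPM added) in cells with an Acta1 UMI over their partners without, 1 point per library, for genes named in all epithelial cells and in enterocytes alone. March3 lies above 0 in all 4 libraries in both comparisons, and Slc28a1 lies below 0 in all 4 in enterocytes.

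Actg1 and several brush border genes were among those higher in enterocytes with an Acta1 UMI. Actg1 was higher by 0.43 ± 0.08 (SE, edgeR adjusted p = 0.0012), with 2728, 2007, 1549 and 1597 CPM in mutant 1, wild type 1, mutant 2 and wild type 2, against 2221, 1891, 1036 and 1071 CPM in partners without. Actb had 0.15 ± 0.09 and did not pass (adjusted p = 0.486 in edgeR). Of 31 brush border and terminal web genes, 8 rose and 1 fell, where 2.76% of all genes tested rose, and their median log2 fold change was 0.13, beside -0.01 over all genes tested. They include Slc9a3r1, a scaffold of the microvillus, at 0.33, Cdhr2, a protocadherin of the links between microvilli, at 0.33, Plec, a linker of filaments, at 0.37, and Tmsb4x, which binds actin monomers, at 0.40. Of 16 SRF and MRTF regulators and targets, 2 rose beside that same share, namely Actg1 itself and Tpm1, a tropomyosin, at 0.29. Of 14 actin folding genes, 0 passed in edgeR, and 0 had an unadjusted p under 0.05.

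Over all epithelial cells, where 0.753% of all genes tested passed, the lists were counted in the same way. Cdhr2, Plec and Slc9a3r1 were higher by 0.26, 0.31 and 0.23 (edgeR adjusted p = 0.0170, 0.0253 and 0.0331), and they were the 3 of 31 brush border genes that passed. None of 20 SRF list members passed, and their median log2 fold change was 0.14, beside -0.0047 over all genes. Of the 20, 9 had an unadjusted p under 0.05. The share of all genes under that limit is not given here, so this count cannot be read as an excess. Of the muscle lists, 0 of 2 skeletal muscle genes and 0 of 4 muscle-gene regulators that could be tested passed, with 0 at an unadjusted p under 0.05.

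Cluster 8 alone, examined after the other results were seen, had the highest share of genes past the threshold of these comparisons. The filter left fewer genes to test there than in all enterocytes, where 228 of 6166 passed. The shares thus have unlike bases and do not compare the size of the differences. In 33, 27, 124 and 27 pairs of mutant 1, wild type 1, mutant 2 and wild type 2, 235 of 2229 genes passed (10.5%), with 146 higher (6.55%) and 89 lower in cells with an Acta1 UMI. Ada, adenosine deaminase, was higher by 2.31 ± 0.28, with 270, 353, 422 and 1634 CPM in cells with a UMI, against 61.0, 136, 130 and 80.1 CPM in cells without, in mutant 1, wild type 1, mutant 2 and wild type 2. Slc28a2, a purine nucleoside transporter, was higher by 2.17 ± 0.31, Ly6m by 2.17 ± 0.20 and Apoa4, an apolipoprotein of absorbed fat, by 1.72 ± 0.21. In mouse small intestine, Ada, Slc28a2 and Apoa4 are known as genes of the upper villus. Duoxa2, which matures the Duox2 oxidase, was higher by 1.70, Acsl3 by 1.72, Actg1 by 0.90 and Tmsb4x by 1.15. Ext1, which builds heparan sulfate, was lower, at -1.34 ± 0.16, as were Gmds at -1.45 and Adk, adenosine kinase, at -1.32.

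The genes higher in cells with an Acta1 UMI were also read between genotypes. Of the 24 genes named as higher over all epithelial cells, in enterocytes or in cluster 8, 22 could be tested in enterocytes of mutants against wild types with the set in the fit. Their log2 fold change was above 0 for 6 and below 0 for 16, with a median of -0.26. It ran from -0.81 ± 0.55 for Cerkl to 0.92 ± 0.43 for Tmeff2. March3 had -0.32 ± 0.22, Slc28a2 had -0.73 ± 0.22, Npl had 0.55 ± 0.21 and Gas2l3 had 0.0061 ± 0.19. None of the 22 passed in edgeR, and 6 had an unadjusted p under 0.05, of which 2 were above 0 and 4 below. Over all genes tested the median was -0.0052 and 0.2% passed. Their share at an unadjusted p under 0.05 is not given here, so the 6 cannot be read as an excess. Slc28a2, Ada, Ly6m and Gm47507 are also leading genes of cluster 24. That cluster held 5.97% of enterocytes in mutant 1 and 7.80% in wild type 1. In set B it held 9.29% in mutant 2 and 16.3% in wild type 2. The part of this mix in their values was not tested. Acta1 itself had 1.64 in that fit, given as a value only.

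The likeness of other genes to Acta1 was measured over 26 sums of a class in a library with at least 50 cells, among 10572 genes, by Pearson correlation of log2(CPM + 1). The 5 most alike were Upp1, a uridine phosphorylase, at r = 0.871, Adap2 at 0.868, Gramd1b at 0.856, Grina at 0.841 and Selenop, which encodes a selenium transport protein, at 0.839. These sums share libraries and cell classes, so the values are a description. Upp1 had 277 CPM in enterocytes of mutant 1 and 336 in those of wild type 1, and 697 in mutant 2 and 287 in wild type 2. It thus followed Acta1 within set B and not within set A. Gramd1b was lower in the mutant of both sets, with 163 and 257 CPM in mutant 1 and wild type 1, and 439 and 518 in mutant 2 and wild type 2. Adap2, Grina and Selenop were lower in mutant 1 than in wild type 1. In set B they were only slightly higher in the mutant, as with Selenop at 2060 and 1944 CPM.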

How the data were processed

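Per the labels' protocols, single cells were sorted by flow cytometry and made into libraries with the 10x 3' kit. The authors deposited raw UMI counts of each gene in each barcode. Per the file headers they come from Cell Ranger 7.0.0 for set A and 7.1.0 for set B, and per the submitters' processing notes from mm10. Whether introns were counted is not given in the sources used here. Acta1, the gene lists and the markers were chosen with earlier results of these data known. The rule for named genes takes the 5 other actins, genes within 100 kb of Acta1, up to 4 members per list by smallest p, up to 10 called genes each way that keep 1 sign in 4 libraries and have a mean of at least 10 CPM, and the 5 genes most like Acta1. Acute colitis is in the series title and in none of the sample labels.

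A barcode needed 500 genes and 1000 UMIs, with mitochondrial UMIs under 30%. Scrublet in scanpy 1.11.5 called doublets at 0.8% of barcodes per 1000 barcodes, since its automatic threshold called 15.9%, 0.0778%, 3.36% and 0% of barcodes in mutant 1, wild type 1, mutant 2 and wild type 2. The 2000 most variable genes without actins, 50 principal components and a graph of 15 neighbours were clustered by the Leiden method at resolution 1.0 in igraph 0.11.9 into 25 clusters, named where at least 3 markers of a type were among 50 leading genes. The T cell cluster was removed. CPM is UMIs of a gene over all UMIs of the same cells. Intervals are exact 95% Poisson or Clopper-Pearson intervals. For 0 cells with a UMI the limit is 3 divided by the number of cells.

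Sums of UMIs for each library were tested by quasi-likelihood in edgeR 4.0.16 under R 4.3.3, after TMM scaling and filterByExpr, with Benjamini-Hochberg adjustment over all genes tested. Counts of genes called between genotypes leave out Acta1. DESeq2 1.42.0 was an alternative. Cells with an Acta1 UMI had 1 partner each of the same library and cluster, within 0.05 on the log10 scale of total UMIs, and 8 sums were fitted with the library as a block. On simulated counts this fit found 98 of 100 genes changed 2-fold, with 7 false calls among 11007 genes. For enterocytes of mutants against wild types the fit with no set term found 0 of 100 changed 4-fold, and the fit with it found 99 with 11 false calls. Simulated counts were drawn around means fitted with the library or the set as the only term. Apart from the added folds, the compared groups did not differ. That setting favours a fit with the same term, so it does not show which fit serves these libraries better. The replicate numbers are not in the labels, and mutant and wild type are paired here only by set.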

Additional observations from a re-analysis of the deposited data

Results flagged for a closer look

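In 3 kinds of cells the ratio lay below 0 on the log2 scale in 1 set and above 0 in the other, and the difference between the sets was not tested. The log2 ratio of Acta1 CPM, mutant over wild type, in enteroendocrine cells was -0.42 (set A) and 0.48 (set B). For enterocyte cluster 11 the values were -1.31 (set A) and 0.094 (set B), and for enterocyte cluster 15 they were -2.29 (set A) and 0.93 (set B). The set B value of cluster 11 has no direction that can be read, since the counting interval of its fold was 0.461 to 2.40. In both clusters the set A value rests on wild type 1, where 1 cell held 17 of 18 UMIs in cluster 11 and all 14 in cluster 15.

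In barcodes that the comparisons leave out, Acta1 CPM was higher in the mutant of each set. For each kind of barcode below, the counting intervals of mutant and wild type overlapped in set A and were apart in set B. In set A, barcodes at or over the mitochondrial limit held 15 UMIs in mutant 1 and 6 in wild type 1. Those called doublets held 138 and 47, and those under the minimum held 13 and 4. Barcodes at or over the mitochondrial limit had 8.17 CPM in mutant 1 and 2.43 in wild type 1, and 35.2 CPM in mutant 2 and 8.31 in wild type 2. Barcodes called doublets had 6.54 CPM in mutant 1 and 6.14 in wild type 1, and 18.5 CPM in mutant 2 and 9.34 in wild type 2. Barcodes under the gene or UMI minimum had 9.51 CPM in mutant 1 and 3.60 in wild type 1, and 36.7 CPM in mutant 2 and 4.0 in wild type 2. These barcodes were read after the cells had been kept, with no test.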

How the results depend on the processing

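The alternatives with 3 or more UMIs, single enterocyte clusters, cluster 8 and DESeq2 with the set block were added after seeing the data. The Acta1 log2 ratio, mutant over wild type, stayed positive in 12 of 12 alternatives in all epithelial cells (0.0039 to 2.36) and in Paneth cells (2.15 to 3.51), and in 16 of 18 in enterocytes. The exceptions there were cluster 11 alone at -0.61 and cluster 15 alone at -0.68. In enteroendocrine cells it was -0.21 without mutant 2, -0.18 without wild type 2 and at most 0.27 without 1 library, against 0.029 with all 4. In tuft cells it was -0.045 without wild type 1, at most 1.23 without 1 library, and -0.0077 as a mean over cells. With cells thinned to 2000 UMIs, the log2 ratio of shares was 3.06 in Paneth cells, 0.069 in enteroendocrine cells and 0.073 in tuft cells, against 1.56, -0.49 and -0.17 as counted.

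Genes called between genotypes depended on the fit, from 0 in each kind of cell with no set term. With the set as a replicate block there were 22 over the epithelium, 24 (enterocytes) and 3 (Paneth cells). DESeq2 called 7 in all epithelial cells, and with that replicate block it called 27, 0 and 1 in these kinds of cells. With no filter there were 6 in enterocytes and 10 in Paneth cells, and leaving out 1 library gave 5 to 19 and 0 to 62. The call counts of cells with an Acta1 UMI against cells without were 84, but 0 with no replicate block (44 genes at an unadjusted p under 0.05), 968 without matching, 228 in enterocytes, 235 in cluster 8, 22 in DESeq2, 167 with no filter and 18 to 135 with 1 library left out. The 57 genes called with 3 or more UMIs lay within 1.5 times of 84. The cause of these changes was not tested. Few cells and a low Acta1 level limit the Paneth comparison, where wild type 1 rests on 2 Acta1 UMIs in 45 cells.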
